A study of Mus musculus with 6 samples.

Results

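The loci described here are stretches of transcription without a gene symbol that were assembled inside the 3 mouse immunoglobulin regions. They were taken from all 6 gene tables of an RNA-seq comparison of mouse DN1 thymocytes. A row was kept if it carried no symbol, had an FPKM (fragments scaled to locus length and library depth) above 0, and lay within the heavy-chain region Igh (mm9 chr12:114427734-117643874), the kappa light-chain region Igk (chr6:67485817-70863082) or the lambda light-chain region Igl (chr16:18812066-19285886). This gave 1780 loci out of 710992 rows in all, or out of 566898 rows with no symbol and an FPKM above 0. Igh held 694 of them, Igk 707 and Igl 379.

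Antibody genes are put together from separate variable, diversity and joining segments, and the joined exon is spliced to a constant region that sets the antibody class. Naive B cells make IgM and IgD heavy chains from 1 transcript, while class-switched cells use a constant gene farther from the joining segments, such as a gamma gene or Igha. Light chains come from kappa or lambda segments. Complete rearrangement with splicing to a constant region is a mark of the B lineage, while unrearranged segments can give short germline transcripts.

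The study compared WT mice with mice labelled Tle134-deficient, which by that label lack the Groucho-type corepressors Tle1, Tle3 and Tle4. Mice were 5 to 8 weeks old, and each group had 3 libraries of total RNA. DN1 cells, the earliest thymocyte stage, were sorted without lineage markers, TCRb, CD8a or CD25 and with CD44. The sources used here do not give the allele or Cre driver, the strain, the sex or the number of animals pooled per library, and nothing says that the libraries came from separate animals, so a p-value measures the spread between libraries. In bulk RNA, fewer cells of a type and less RNA per cell cannot be told apart.

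The segment sequences below are those at which the loci began or ended, or whose loci were found in the libraries of 1 group only, with Igkv14-111, found in all 6 libraries, beside its relative Igkv14-126. They are GENCODE M21 mouse transcripts taken by segment name and read 5′ to 3′ in the sense direction; no genome coordinates of that build are used. In the joining segments, which are printed whole, capitals mark the letters TGGGG (heavy chain) or TTCGG (light chain), the start of the tryptophan- or phenylalanine-glycine motif that ends the antigen-binding loop. TGGGG is found in 4 of the 4 Ighj segments, and TTCGG in 4 of the 5 Igkj and 4 of the 5 Iglj segments; only the sense strand was searched.
Ighj1: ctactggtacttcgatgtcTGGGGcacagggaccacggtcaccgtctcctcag
Ighj2: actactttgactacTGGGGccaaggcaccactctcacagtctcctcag
Ighj3: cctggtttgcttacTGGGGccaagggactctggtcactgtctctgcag
Igkj1: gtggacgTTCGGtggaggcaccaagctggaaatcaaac
Igkj2: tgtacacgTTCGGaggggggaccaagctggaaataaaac
Iglj2: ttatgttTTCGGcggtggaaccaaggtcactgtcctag

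For 6 variable segments the last 90 bases are shown, the end that joins to a D or J segment. Capitals mark the letters TANTNNTGT, which spell the tyrosine, the tyrosine or phenylalanine, and the cysteine at the end of the variable framework. The letters occur near the 3′ end of 107 of the 113 Ighv and 62 of the 100 Igkv segments annotated as functional.
Ighv2-2: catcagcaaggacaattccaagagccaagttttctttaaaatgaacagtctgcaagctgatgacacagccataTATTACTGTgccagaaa
Ighv5-12: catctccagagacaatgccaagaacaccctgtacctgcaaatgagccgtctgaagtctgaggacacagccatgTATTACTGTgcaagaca
Ighv11-2: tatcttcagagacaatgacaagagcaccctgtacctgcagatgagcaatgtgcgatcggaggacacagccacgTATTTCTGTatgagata
Ighv1-55: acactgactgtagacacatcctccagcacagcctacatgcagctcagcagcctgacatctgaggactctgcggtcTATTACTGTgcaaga
Igkv14-126: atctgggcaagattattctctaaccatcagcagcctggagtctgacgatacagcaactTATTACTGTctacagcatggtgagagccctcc
Igkv14-111: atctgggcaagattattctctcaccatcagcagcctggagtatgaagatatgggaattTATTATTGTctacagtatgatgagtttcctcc

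The targeted genes were not lower in the libraries labelled Tle134-deficient. Tle1 stood at 1.37, 1.19 and 3.61 FPKM across WT libraries 1 to 3, against 11.5, 11.3 and 11.1 in the labelled-deficient ones, and Tle3 at 26.1, 35.9 and 23.4 against 82.6, 77.5 and 58.6. Tle4 stood at 17.9, 18.8 and 14.5 against 27.8, 35.2 and 17.8. Gene-level values do not show whether a deleted exon is missing, so these libraries are named by their label only. No adjusted p of the 3 genes (limma, all symbol genes) was below 0.05; the lowest was 0.0957, for Tle1. Library depth, given below as fragments implied for loci with a symbol, ran from 1.42e+06 (WT library 1) to 4.34e+06 (labelled-deficient library 3).

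How long a locus was decided its FPKM far more than how many fragments it held. Among loci that held a fragment or more, the 286 under 160 bases had a median of 134221 FPKM on a median of 12.5 fragments. The 494 from 300 to under 500 bases had a median of 11.0 FPKM on 17 fragments. Loci under 200 bases carried 95.7 to 99.9% of the summed FPKM of a library but only 5.81 to 11.3% of its fragments. Of the 54 loci that were the 3 highest by FPKM in a region and library, 53 were under 160 bases long, only 6 lay on a segment, and none held more than 31.9 fragments. The fragments of a locus were therefore read back from the interval deposited with each FPKM (the squared ratio of the value to its standard error, the interval being 2 standard errors to each side), and levels are given beside FPKM as FPM, the fragments per 1000000 fragments in symbol loci. All but 27 of the loci held at least 9.5 fragments, so a segment without a locus may still be transcribed below that level.

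**Figure D1:**
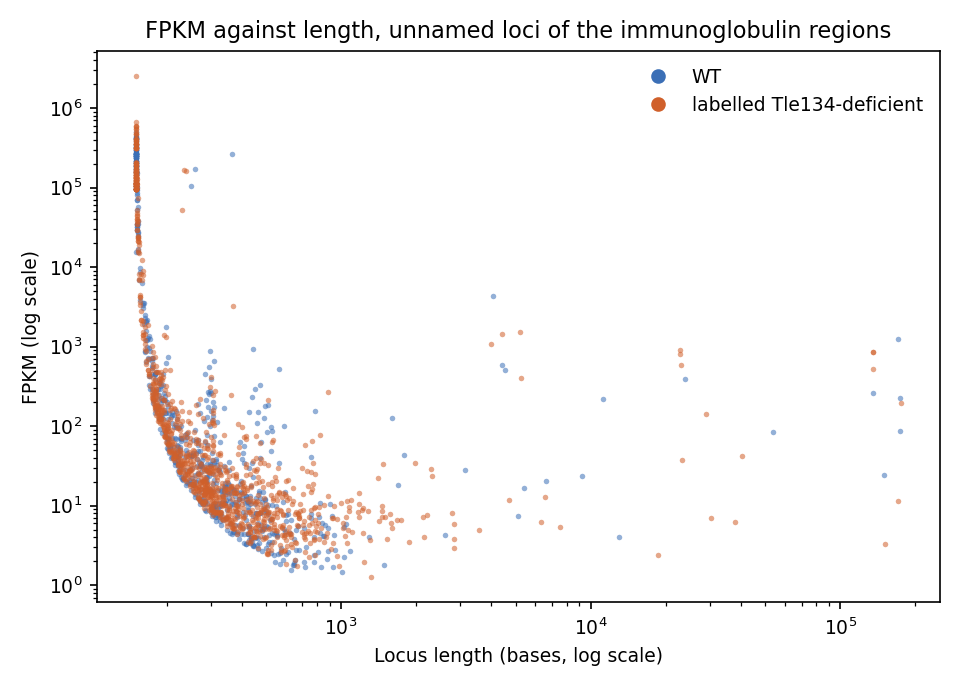
FPKM (log axis) against locus length in bases (log axis) for the immunoglobulin-region loci that held a fragment or more. The 286 loci under 160 bases sit at a median of 134221 FPKM, far above the longer loci that cover constant and variable segments.

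The libraries held 146, 352 and 181 of the loci in WT and 217, 520 and 364 in the labelled-deficient group. Only 65 loci overlapped a constant gene, 2 lay on joining or diversity segments alone and 316 overlapped variable segments. Another 728 lay between segments and 669 outside the outermost segments, where known genes such as Esyt2 (214 loci), Eif2ak3 (129 loci) and Hira (105 loci) share the interval. Of the 316 variable loci, 311 covered a single segment, and 275 of these had at least 80% of their bases inside it, with a median length of 303 bases. Counts and shares of variable segments below use these 311 loci, while summed levels of a variable part use all 316.

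In the heavy-chain constant part, the WT libraries each held 1 locus that ran from Igha, the IgA gene at the far end, through the epsilon, gamma, delta and mu genes to the joining segments. It spanned chr12:114494572-114667725 in WT library 1 (87.8 FPKM, 399 fragments), chr12:114494600-114668809 in WT library 2 (227 FPKM, 2604 fragments) and chr12:114496931-114667341 in WT library 3 (1252 FPKM, 3221 fragments). The labelled-deficient libraries instead each held a short locus over Ighd, Ighm and the joining segments alone. Its span was chr12:114644837-114667719 in library 1 (898 FPKM, 4006 fragments), chr12:114645001-114667722 in library 2 (803 FPKM, 5025 fragments) and chr12:114644770-114667714 in library 3 (592 FPKM, 2921 fragments). The Igha-to-J span was thus present in 3 of 3 WT and 0 of 3 labelled-deficient libraries. Implied depth was 1.42e+06, 3.21e+06 and 3.24e+06 fragments in WT and 1.51e+06, 3.16e+06 and 4.34e+06 in the labelled-deficient libraries, and its part in how loci were joined was not tested.

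**Figure D2:**
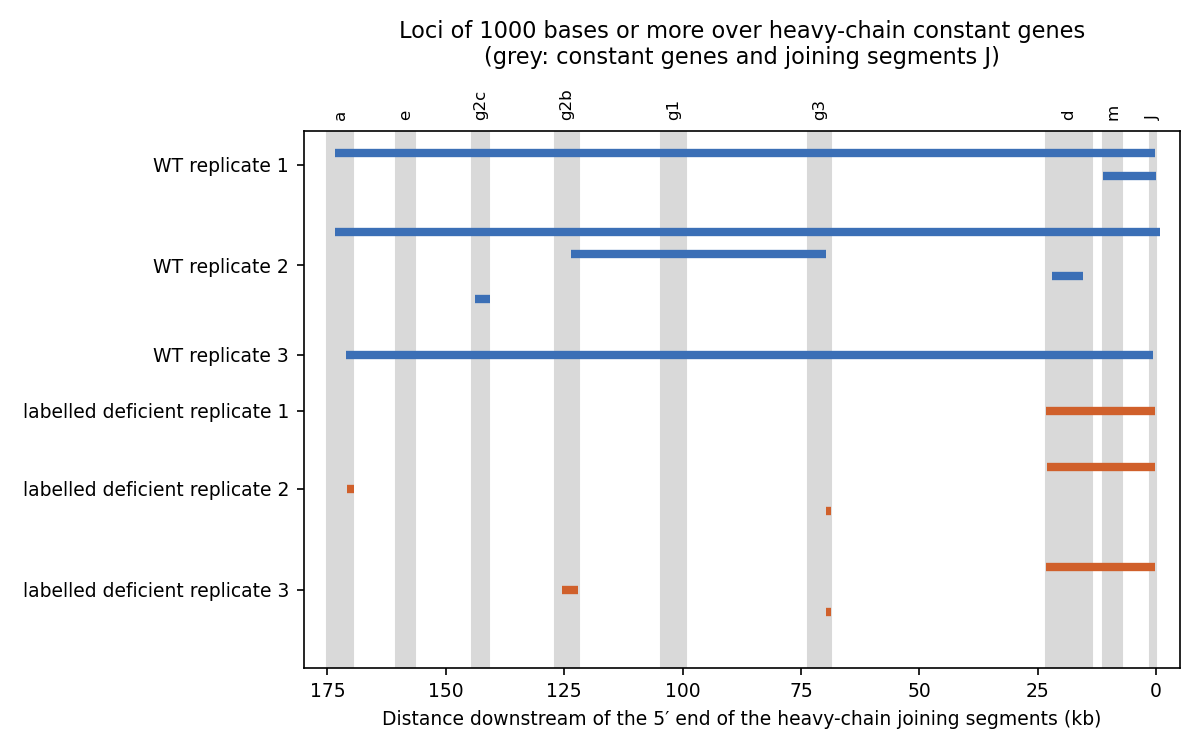
Loci of 1000 bases or more over the Igh constant genes (bars, 1 block of rows per library), by distance in kilobases downstream of the joining segments, with the constant genes (a to m) and the joining segments (J) as grey bands. In the 3 WT libraries 1 locus reaches from Igha to the joining segments, and in the 3 labelled-deficient libraries the joined locus covers Ighd, Ighm and the joining segments.

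Constant genes downstream of Ighd were at low level where they stood alone in the labelled-deficient group. Igha loci there held 20.6 fragments in library 1, 52.9 in library 2 and none in library 3. Ighg2b, an IgG gene, held 21.0, 52.8 and 112 fragments, and Ighg3 held 0, 56.2 and 60.6. In WT library 2, where part of the gamma genes formed a locus of their own (chr12:114544515-114598387, Ighg2b to Ighg3), it held 452 fragments at 85.6 FPKM, and a separate Ighg2c locus held 445 fragments at 28.0 FPKM. Other stand-alone loci in WT were as low: Ighg2b held 19.2, 18.0 and 22 fragments, and in library 3 Igha held 17 and Ighg2c 11. A gene inside a joined locus has no value of its own, so the downstream genes cannot be compared between the groups in fragments.

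All these long heavy-chain loci ended at or close to a joining segment. The 5′ end lay inside Ighj2, by 1 base in WT library 1 and by 7, 4 and 12 bases in the labelled-deficient libraries, inside Ighj3 by 2 bases in WT library 3, and 765 bases upstream of Ighj1 in WT library 2. WT library 1 also held an Ighm-to-J locus of 1058 fragments (218 FPKM) that ended 9 bases inside Ighj1.

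Summed over the heavy-chain constant part, the level did not separate the groups. It was 1041, 1108 and 1014 FPM in WT and 2797, 1647 and 780 in the labelled-deficient libraries. The labelled-deficient libraries thus lay on both sides of a tight WT group (exact permutation test, two-sided, p = 0.4). The constant part's share of the Igh region's fragments was 54.9, 45.5 and 46.2% in WT and 74.1, 57.2 and 55.6% in the labelled-deficient group. It was higher in all 3, but by a small margin, with the highest WT library at 54.9% and the lowest labelled-deficient library at 55.6%. With 3 against 3 libraries an exact p cannot be below 0.1. Among symbol genes by FPM, 6.4% also had every labelled-deficient library above every WT library. Parts of a region add up to the whole, so this share moves against the others.

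Kappa constant transcripts were present in every library. Each held 1 locus from the joining segments to Igkc, whose FPKM was 510, 591 and 4330 for the WT libraries and 1431, 1088 and 1528 for the labelled-deficient ones. In FPM this was 756, 658 and 758 against 1178, 473 and 542, and the groups overlapped on both scales (exact permutation test of the fragments, p = 1). WT library 3 was the highest by FPKM but not by FPM, where it stood level with WT library 1. The 5′ ends lay at Igkj1 in WT library 1 (3 bases upstream), WT library 2 (10 bases upstream) and labelled-deficient library 1 (11 bases upstream), and 951 bases upstream of it in labelled-deficient library 3. In WT library 3 and labelled-deficient library 2 the locus instead began inside Igkj2, by 4 and 6 bases.

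Lambda transcripts were more abundant in the labelled-deficient libraries by fragments. The lambda constant part stood at 38.6, 84.4 and 410 FPM in WT and at 627, 591 and 518 in the labelled-deficient libraries. The groups did not overlap, at an exact p of 0.1, the smallest that 3 against 3 libraries allow; WT library 3 was far above the other WT libraries. By summed FPKM (139, 75.5 and 652 against 888, 578 and 1154) the groups overlapped, because WT library 3 passed labelled-deficient library 2. The fitted log2 difference was 2.37 (SE 0.77) by fragments and 2.14 (SE 0.79) by FPKM, with limma adjusted p-values over all genes of 0.407 and 0.363. Leaving out each library in turn gave differences by fragments of 1.62 to 3.31. Only the highest of these, without WT library 3, had a limma adjusted p under 0.05 (0.0463). That fit drops the WT library nearest the labelled-deficient group.

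A 135 kb span from Iglc3 to Iglc2 and Iglj2 formed a single locus in WT library 3 (261 FPKM, 427 fragments) and in all labelled-deficient libraries (864 FPKM on 843 fragments, 529 FPKM on 1305 and 863 FPKM on 1487). In WT libraries 1 and 2, Iglc2 stood alone with 31.1 and 142 fragments (127 and 43.7 FPKM). Iglc2 and Iglc3 share 288 of 299 bases (96.3%) at the start of their constant exons, so reads of one may have been placed on the other. Iglc1, which shares only 169 of 299 bases (56.5%) with Iglc2, had no locus in WT library 1, 18.4 FPKM in WT library 2, and 23.9, 29.1 and 93.0 FPKM in the labelled-deficient libraries. In WT library 3 it was joined to Iglc3 (391 FPKM, 904 fragments).

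Lambda made up 4.86, 11.4 and 35.1% of light-chain constant fragments in WT and 34.7, 55.6 and 48.8% in the labelled-deficient libraries. WT library 3 lay just above labelled-deficient library 1, so the groups overlapped (exact p = 0.2). By FPKM the shares were 21.4, 11.3 and 13.1% against 38.3, 34.7 and 43.0%, without overlap. The whole Igl region held 157, 444 and 631 FPM in WT against 1314, 1626 and 908, and the lambda variable loci 10.6, 14.3 and 21.0 against 166, 86.8 and 33.9, both without overlap. Over all symbol genes by the same measure, 6.4% had every labelled-deficient library above every WT library and 8.21% the reverse. Iglv3, the lambda variable segment with a locus in all 6 libraries, held 15.1, 18.0 and 23.6 fragments in WT and 59.6, 211 and 147 in the labelled-deficient group.

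**Figure D3:**
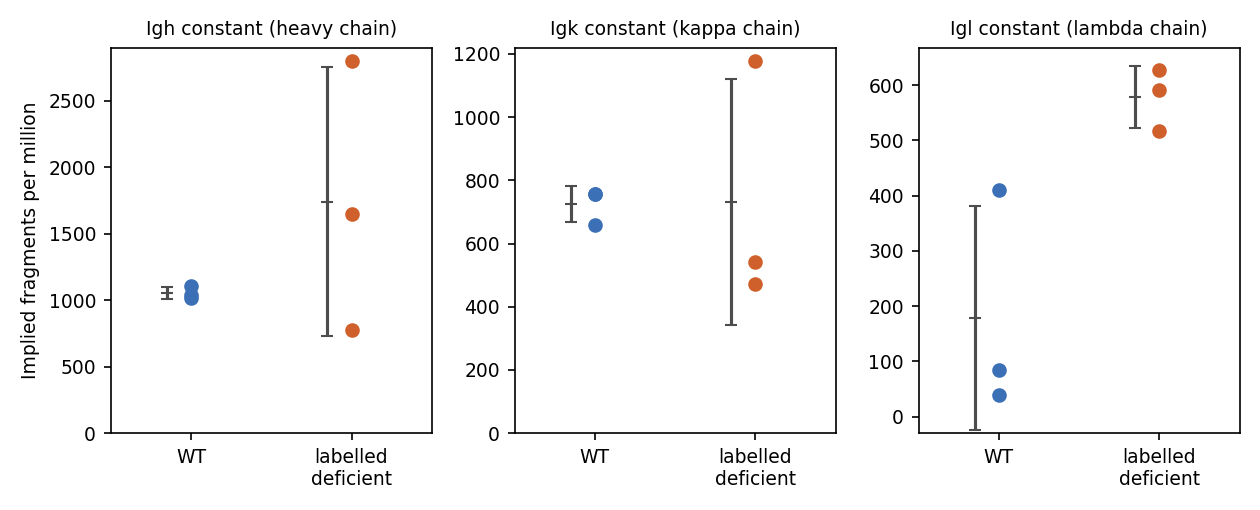
FPM in the constant parts of Igh, Igk and Igl, 1 point per library, with the group mean and SD beside them (n = 3 per group). Igl is the part in which the groups do not overlap: 38.6 to 410 in WT and 518 to 627 in the labelled-deficient libraries.

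None of the 3 region totals passed the test across all genes. The summed FPKM differed by 0.28 (SE 1.03) for Igh, 0.80 (SE 1.02) for Igk and 0.62 (SE 1.10) for Igl on the log2(FPKM + 1) scale, labelled-deficient minus WT, with limma adjusted p-values of 0.981, 0.895 and 0.944. By fragments the differences were 0.20 (SE 0.38), 0.34 (SE 0.33) and 1.82 (SE 0.51), with adjusted p-values of 0.917, 0.831 and 0.293. Among the 11063 symbol genes tested in FPKM, 82 passed (0.741%), of which 71 were higher (0.642%) and 11 lower (0.0994%) in the labelled-deficient group; by fragments 7 of 13378 passed (0.0523%). The exact permutation test was run on the 77 totals, shares and counts of these regions that varied among the libraries, of which 13 did not overlap between groups, many of them parts of each other; the smallest adjusted p was 0.592.

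The heavy-chain variable segments in use differed in position. In WT, 10.8, 12.7 and 9.72% of the fragments on Ighv segments lay within 500 kb of the joining segments, against 70.7, 74.9 and 73.1% in the labelled-deficient libraries. The groups were far apart and each was tight (11.1% ± 1.54 against 72.9% ± 2.15, SD, n = 3, exact permutation p = 0.1, the smallest possible). Of the 196 annotated Ighv segments, 41 (20.9%) lie within that distance. The mean distance, weighted by fragments, was 1868, 1072 and 1505 kb in WT and 503, 443 and 494 kb in the labelled-deficient group. Summed Ighv level itself overlapped, at 360, 362 and 905 FPM against 520, 358 and 349.

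**Figure D4:**
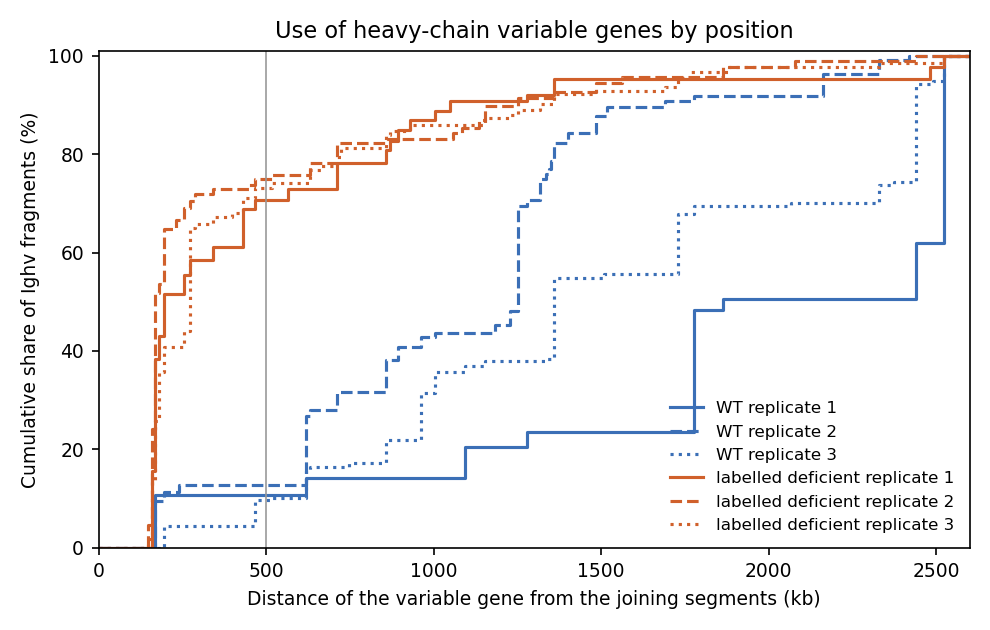
Cumulative share of Ighv fragments (percent) by distance of the segment from the joining segments in kilobases, 1 line per library, with a vertical line at 500 kb. At that line the WT libraries have reached 9.72 to 12.7% and the labelled-deficient libraries 70.7 to 74.9%.

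By family, distal Ighv1, the largest mouse family, held 77.4, 56.3 and 63.1% of Ighv fragments in WT and 9.30, 13.2 and 14.2% in the labelled-deficient libraries. The proximal family Ighv5 held 10.8, 12.7 and 4.36% against 42.0, 46.7 and 43.6%. Ighv2 had no locus in any WT library and 26.8, 27.1 and 27.5% in the labelled-deficient ones. Ighv11 showed the reverse, with 3.33, 14.1 and 5.60% in WT and no locus in the labelled-deficient libraries. With the small family Ighv14 (0, 1.21 and 1.49% against 2.17, 2.39 and 2.61%), 5 of the 14 families with a locus did not overlap between groups, 3 higher and 2 lower in the labelled-deficient libraries, beside 6.4% and 8.21% of symbol genes by FPM. Family shares add up to the whole and so move against each other.

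Loci were found on 8, 27 and 23 Ighv segments in WT and on 21, 27 and 32 in the labelled-deficient libraries, 65 segments in all. None of the 65 had a locus in all 6 libraries and 27 had one in a single library. Among the 15 segments with a locus in exactly 3 libraries, 5 had it in all labelled-deficient libraries and 2 in all WT libraries. Outside the regions, of the 21210 joined unnamed loci present in exactly 3 libraries, 6.79% were in all labelled-deficient libraries and 1.29% in all WT libraries. Segments of 1 library share its cells and are no replicates of each other.

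The clearest of the labelled-deficient segments was Ighv2-2, 158 kb from the joining segments. It had no locus in WT and 310, 249 and 160 FPKM in the labelled-deficient libraries (122, 221 and 184 fragments), at chr12:114826481-114826779, chr12:114826540-114826900 and chr12:114826477-114826784. The segment was picked for having a locus in the labelled-deficient libraries alone, so this separation is no test of a difference. Against the closest other segment, Ighv2-4, it matches at 274 of its last 280 bases (97.9%), so part of these reads could come from that neighbour in sequence.

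Other proximal segments seen only in the labelled-deficient libraries were Ighv2-3 (36.2, 21.0 and 151 fragments), Ighv2-5 (30.0, 28.0 and 49.3), Ighv5-12 (23.7, 17 and 316) and Ighv2-9-1 (21.0, 11.0 and 18.9). Ighv2-9-1 is near the assembly limit in each. Ighv5-4 was the top segment of labelled-deficient libraries 1 and 2, with 22.8 and 27.7% of Ighv fragments, and Ighv5-12 that of library 3, with 20.9%. Ighv5-4 was not restricted to that group: it held 55.1, 110 and 0 fragments in WT and 179, 313 and 180 in the labelled-deficient libraries.

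The 2 segments found in all WT libraries and in no other were Ighv11-2 and Ighv1-55. Ighv11-2, 618 kb from the joining segments and known from B-1 cell antibodies, held 17, 163 and 164 fragments (chr12:115286481-115286882 in WT library 1, 38.2 FPKM). Ighv1-55, 1778 kb away, held 126, 13.0 and 48.6 fragments (chr12:116446309-116446608 in WT library 1, 259 FPKM). Each WT library was led by a different distal Ighv1 segment: Ighv1-82 took 38.0% in library 1, Ighv1-18 took 21.2% in library 2 and Ighv1-78 took 19.7% in library 3. Ighv11-2 differs from its closest relative, Ighv11-1, at few positions (276 of 280 bases identical, 98.6%), and the assignment between them is uncertain.

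Kappa variable fragments were spread more evenly over segments in the labelled-deficient libraries. Loci were found on 7, 16 and 23 Igkv segments in WT and on 19, 41 and 42 in the labelled-deficient libraries, which overlapped. The strongest segment took 47.6, 22.7 and 21.8% of Igkv fragments in WT and 14.2, 9.91 and 9.54% in the labelled-deficient group. Loci over more than 1 segment are left out of these shares. In labelled-deficient library 3 a locus from Igkv6-15 to Igkv6-14 held 219 fragments, more than the 132 of the top segment, Igkv14-111. The effective number of segments (the inverse of the summed squared shares) was 3.52, 7.75 and 11.0 in WT and 14.0, 26.2 and 24.2 in the labelled-deficient libraries, without overlap (exact permutation p = 0.1). Summed Igkv level was 381, 272 and 1156 FPM against 282, 348 and 376, and the wider labelled-deficient spread came with totals that overlapped. For Ighv the effective number was 4.22, 11.0 and 9.31 against 9.67, 7.33 and 10.8 and overlapped.

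Igkv14-111 was the only kappa segment with a locus in all 6 libraries (46.7, 20.0 and 232 fragments in WT, 60.5, 73.1 and 132 in the labelled-deficient libraries). Igkv14-126, whose light chain is known as the partner of Ighv11-2 in B-1 cell antibodies, had a locus in WT library 2 (141 fragments, chr6:67846160-67846636) and WT library 3 (201 fragments, chr6:67846198-67846637) alone. These are the 2 WT libraries with the most Ighv11-2 fragments. The 2 kappa segments printed above match at 254 of their last 280 bases (90.7%). Igkv12-89 held 257, 0 and 818 fragments in WT and 0, 0 and 28.0 in the labelled-deficient group, and led WT libraries 1 and 3.

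Of the 13 Igkv segments with a locus in exactly 3 libraries, 4 had it in all labelled-deficient libraries and 0 in all WT libraries. These were Igkv6-23 (26.9, 43.4 and 119 fragments), Igkv4-51 (25.0, 17 and 16), the pseudogene Igkv1-108 (11.0, 109 and 39.5) and Igkv17-127 (11.0, 11.0 and 11.9). The last of these stands at the assembly limit. The share of Igkv fragments within 500 kb of the joining segments was 11.6, 7.65 and 27.2% in WT and 14.1, 14.9 and 24.6% in the labelled-deficient libraries, with overlap.

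Loci between the segments, many of them short, were more frequent in the labelled-deficient libraries for both light chains. Igk held 48, 42 and 17 such loci in WT and 54, 127 and 72 in the labelled-deficient group. Igl held 2, 11 and 17 against 28, 45 and 25. Neither pair of ranges overlapped, in Igk by a small margin. Over the genome, unnamed loci numbered 60265, 138037 and 59157 in WT and 49861, 160838 and 98740 in the labelled-deficient libraries, with overlap. How often such counts separate elsewhere in the genome was not tested. By level, among the loci between segments only those of Igl separated, at 18.1, 50.5 and 83.5 FPM against 329, 550 and 118, beside 6.4% of symbol genes in that direction. Igk loci outside the segments, 129 of 182 of them in Eif2ak3, also separated, by a small margin. They held 131, 251 and 60.9 FPM against 253, 1010 and 284. Between the Igh segments the counts were 35, 74 and 34 against 21, 52 and 24 and overlapped.

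Joining overlapping loci across the 6 libraries left 837 distinct intervals, 372 in Igh, 355 in Igk and 110 in Igl. Of these, 595 were found in a single library and 10 in all 6. None of the 117 tested intervals passed an adjusted p of 0.05 in limma (0% of all 35527 joined unnamed loci tested passed). Of the 117, 12 had an unadjusted p under 0.05, and the smallest adjusted p was 0.827. Among the intervals highest by mean FPKM, those fitted had SEs of 5.27 to 6.28 log2 units. With such SEs the fit cannot show that an interval did not differ. Among loci of at least 250 bases, a choice made after the data were seen, 2 of 18526 passed (0.0108%), of which the Ighv2-2 interval was 1. That interval met the filter on low values only through the labelled-deficient libraries, where it is high, so its pass is no support for a difference. The interval with the highest mean FPKM in Igh was the whole constant and joining part (chr12:114494074-114668809), which took in 98 loci and is present in all 6 libraries; by FPM it held 1081, 1160 and 1048 in WT and 2943, 1812 and 822 in the labelled-deficient libraries. In Igk the highest was chr6:68071037-68253864, which took in 106 loci from Igkv1-117 to Igkv2-109, and held 62.6, 105 and 194 FPM against 194, 386 and 174. Others lay within the bounds of neighbouring genes, such as chr6:70799495-70806187 in Eif2ak3 and chr16:18903310-18905924 in Hira. The remaining intervals ranked highest by mean FPKM, such as chr6:69139121-69139271 (663930 FPKM in labelled-deficient library 1 and no locus elsewhere), owed their rank to 1 or a few short loci.

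B cell marker genes moved with the groups. Of 10 B cell markers, 8 were higher in the labelled-deficient libraries at an adjusted p under 0.05 (limma) against 0.642% of all symbol genes, and all 10 had a positive difference (median log2 3.42 against 0.04 over all symbol genes tested). Their summed level was 75.4, 76.4 and 129 FPKM in WT and 978, 812 and 605 in the labelled-deficient group, and none was at 0 in every library. Cd79a, which carries the antigen receptor's signal, stood at 8.95, 6.88 and 38.6 FPKM against 287, 209 and 161 (log2 3.88, SE 0.63, adjusted p = 0.0309). Its partner chain Cd79b stood at 9.09, 6.50 and 23.0 against 202, 110 and 111 (log2 3.48, SE 0.53, adjusted p = 0.0282). For both genes every labelled-deficient library was above every WT library. The count of 8 was 0 without WT library 1, without labelled-deficient library 1 and without labelled-deficient library 2, 1 without WT library 2, and 5 without labelled-deficient library 3. It was also 0 with the replicate number as a block and 0 with no filter on low values, 1 on FPKM times length and 4 by fragments. The part of these B-lineage transcripts in the immunoglobulin results was not tested.

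**Figure D5:**
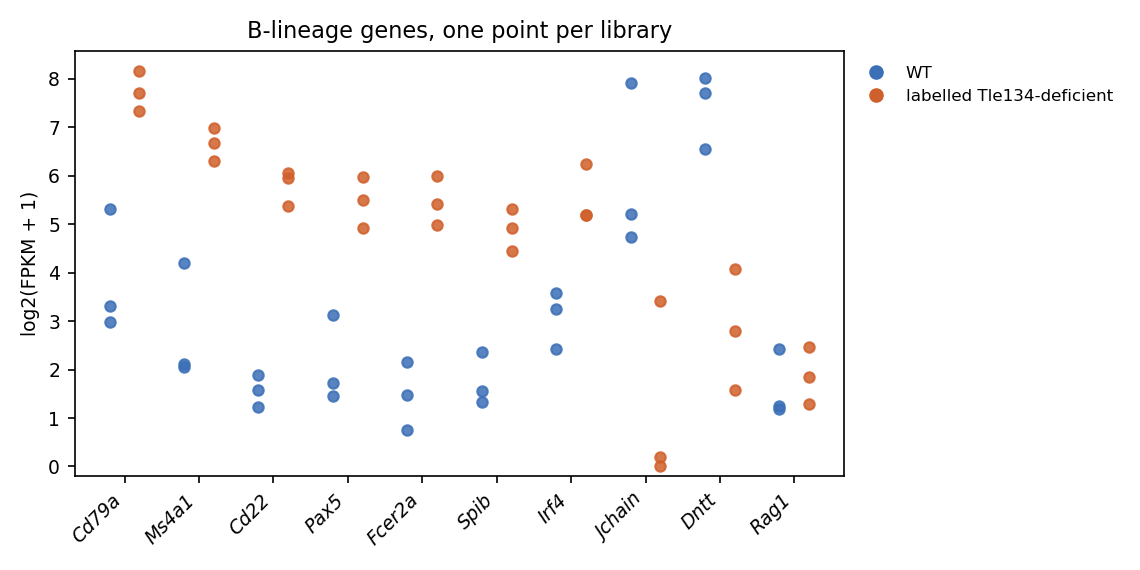
log2(FPKM + 1) of 10 genes expressed in B-lineage cells, 1 point per library, coloured by group. Cd79a and Pax5 lie higher in all 3 labelled-deficient libraries, and Jchain and Dntt lie higher in all 3 WT libraries.

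Markers of antibody secretion were mixed: none of the 6 plasma cell markers tested passed, 5 had a positive difference and Jchain a negative one (median log2 0.90). Jchain, the peptide that links polymeric IgA and IgM, had values of 35.9, 25.7 and 240 FPKM in the WT libraries and 0, 0.148 and 9.72 in the labelled-deficient ones. It was higher in every WT library, with a log2 difference of -4.75 (SE 1.04) that missed the threshold (limma adjusted p = 0.0901). Mzb1, a secretory-cell chaperone, overlapped at 10.6, 9.01 and 52.4 against 47.2, 25.6 and 48.6. Irf4, a transcription factor of activated B cells and plasma cells, was at 8.46, 11.0 and 4.38 FPKM against 35.7, 74.4 and 35.3 (log2 2.45, SE 0.47, limma adjusted p = 0.0538). Sdc1, a plasma cell surface proteoglycan, was at 0.721, 1.30 and 5.24 against 14.9, 16.9 and 8.66 (log2 2.27, SE 0.58, adjusted p = 0.138). Neither gene overlapped between the groups, and Tnfrsf17 was at 0 in all 6 libraries. The summed plasma cell list was 75.2, 61.9 and 336 FPKM against 111, 150 and 130. WT library 3, with the highest Jchain, also had the highest Igkc FPKM, though not the highest Igkc FPM, and the strongest lambda level of the WT group.

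Of 28 genes known to act in immunoglobulin rearrangement and expression, 27 were tested, 3 were higher (Pax5, Ebf1 and Spib) and 1 lower (Dntt), against 0.642% and 0.0994% of all symbol genes. Pax5 and Ebf1 are also among the B cell markers already counted. Dntt, which adds untemplated bases at V(D)J joins, fell from 93.3, 207 and 257 FPKM to 15.9, 5.98 and 1.99 (log2 -4.60, SE 0.65, adjusted p = 0.0282). Of the 7 pro-B and pre-B cell markers tested, Dntt alone passed, while 5 had a positive difference (median log2 0.25). The summed list was 124, 227 and 313 FPKM in WT and 76.9, 39.0 and 31.3 in the labelled-deficient libraries. Most of the WT sums was Dntt, so they do not describe the list as a set. Spib, a B-lineage transcription factor, rose from 1.53, 1.94 and 4.17 FPKM to 38.6, 29.1 and 21.0 (log2 3.14, SE 0.45, adjusted p = 0.0282). Markers of early T cell progenitors had a summed level of 421, 400 and 400 FPKM in WT and 384, 238 and 177 in the labelled-deficient libraries. This sum was higher in every WT library than in any labelled-deficient one. Tcf7 alone held 229, 164 and 213 FPKM in WT and 239, 121 and 39.5 in the labelled-deficient libraries. The sum thus does not describe the list as a set. Singly, Notch1 (lower) and Il2ra (higher in the labelled-deficient group) did not overlap between groups. Kit, Hes1, Tcf7, Gata3, Bcl11b and Cd44 overlapped. Of the 8 markers, 2 had a positive difference (median log2 -0.93) and none passed. None of the 5 plasmacytoid dendritic cell markers (summed 116, 92.5 and 107 FPKM against 132, 147 and 97.8) or of the 4 myeloid markers tested (summed 102, 248 and 389 against 71.1, 92.6 and 987) passed either. Il2ra, the CD25 chain excluded by the sort, was at 2.83, 3.59 and 1.69 FPKM in WT and 6.75, 7.36 and 4.22 in the labelled-deficient libraries (limma adjusted p = 0.575).

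Over the 6 libraries, the genes whose log2(FPKM + 1) most resembled the summed Igk FPKM were Lrch3 (Pearson r = 0.994), Wbp2 (0.981), Tmem126a (0.976), Rab11fip4 (0.968) and the unit of the overlapping symbols Akap2, Pakap and Palm2 (0.967), out of 7771 compared. No B cell marker is among them; the summed Igk FPKM is carried by loci under 200 bases, and these values are a description of 6 libraries.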

How the data were processed

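The authors deposited 1 gene table per library in FPKM with an interval per locus, per the file headers, on mm9. Trimmomatic 0.38, TopHat2 2.1.1 and featureCounts 2.0.1 are named in the submitters' processing notes; no source used here names the step that made the loci without a symbol, whose boundaries differ between libraries. The members and lists were chosen with earlier results of these data known.

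Starts were read as 0-based. Constant, joining and variable segments were placed by their distance from neighbouring genes whose spacing is the same in GENCODE M21, since no mm9 annotation was used here. Such genes were 21 of 41 compared for Igh, 16 of 37 for Igk and 21 of 44 for Igl. Inside the segment clusters lay 4 of them in Igh, 0 in Igk and 0 in Igl. Distances in bases within Igk and Igl therefore rest on a spacing that was not checked. A locus overlapping by at least 1 base was given the segment. Locus values of a symbol were summed, overlapping symbols were merged to 23401 units, and overlapping unnamed loci were joined across libraries. Tests used limma 3.58.1 (R 4.3.3; trend and robust) on log2(FPKM + 1), at least 1 in 3 libraries, with Benjamini-Hochberg adjustment at 0.05 over all features, after a check on simulated data. Single values used a two-sided exact permutation test. Fragments were read from the deposited intervals: 43.8% of loci gave a whole number within 0.01, and 1758 of 1780 gave 4 or more. These fragments hold no measure of the spread between libraries. Some intervals were wider than a fragment count gives. A locus over Iglc2 and Iglj2 in labelled-deficient library 2 (12.7 FPKM, interval 0 to 5832) read back as 1.92e-05 fragments. Such loci add almost nothing to FPM. Python 3.11.15 with pandas 2.3.3 made the summaries.

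Named loci are the 3 highest per region and library and the 5 highest joined loci per region, with genes from the lists; the variable and constant segments named were chosen after their values were seen. The main fits did not pair libraries by replicate number. The design had assumed that summed FPKM would follow fragments; both are given.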

Additional observations from a re-analysis of the deposited data

How the results depend on the processing

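The Igk constant, Igl constant and Igl variable totals hold no locus under 250 bases; the others do. With only loci of at least 250 bases, the log2 differences became -3.65 (Igh region), -2.66 (Igh variable), -1.11 (Igk region) and -1.70 (Igk variable). By fragments they became 0.54 for the Igh constant part, -0.29 for Igh variable, -0.11 for the Igk constant part and -0.56 for Igk variable. Leaving out each library gave -0.25 to 0.91 (Igh region), -2.73 to 3.48 (Igh constant), 0.82 to 5.09 (Igh variable), 0.05 to 1.19 (Igk region), -0.26 to 1.28 (Igk constant), 2.30 to 7.76 (Igk variable, adjusted p = 0.00559 without WT library 3), -0.11 to 1.54 (Igl region), 1.48 to 3.03 (Igl constant) and 0.29 to 1.88 (Igl variable); the Igl constant part by fragments gave 1.62 to 3.31. The cause was not tested.

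The Ighv share within 500 kb differed by 61.8 percentage points; it was 43.7 within 250 kb, 55.9 within 1000 kb, 31.1 with loci counted once, 70.9 with loci of at least 250 bases and 60.8 to 62.9 leaving out each library. The lambda share differed by 23.1 to 38.3 points leaving out each library. The tested intervals with an adjusted p under 0.05 numbered 1 with only loci of at least 250 bases.

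After removal of the group means, the same-numbered libraries correlated at 0.084, 0.182 and 0.174, and those of different numbers at -0.196 to 0.035. The correlations were weak, but 6 of 6 libraries correlated best with their own number. Whether the numbers mark a shared batch was not tested. With the replicate number as a block, 0 genes passed against 82 and the Igl constant log2 difference was 2.14. The number of genes passing was 41 with a pseudocount of 0.1, 0 with no filter, 54 without limma's trend and robust steps, 7 on FPKM times length, and, leaving out 1 library, 0 to 70. Depth limits the absence calls, since all but 27 loci held at least 9.5 fragments.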
